A study of Homo sapiens with 26 samples.

Results

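Mast cells and basophils are blood-derived cells that bind the antibody IgE on their surface and release stored mediators when that IgE is cross-linked. The 10 genes described here mark these cells, and they were found among the 57773 genes of the deposited count table through their Ensembl identifiers. They encode the enzyme that makes histamine (HDC), the alpha, beta and gamma chains of the high-affinity IgE receptor (FCER1A, MS4A2 and FCER1G), the granule proteases carboxypeptidase A3 and the alpha/beta and beta tryptases (CPA3, TPSAB1 and TPSB2), the sialic acid-binding inhibitory lectin SIGLEC6, the interleukin-33 receptor ST2 (IL1RL1), and the hematopoietic prostaglandin D2 synthase (HPGDS). The list was drawn up by name with earlier results of these data known, and all 10 passed the filter on low counts in each comparison.

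The cells were TF-1, an established human erythroleukemia line that grows on the cytokine GM-CSF. Clones F4 and A12 carry a homozygous TET2 knockout and are labelled TET2 -/- (KO), and clones A7 and C4 are labelled TET2 +/+ (WT). TET2 is an enzyme that oxidises 5-methylcytosine in DNA. Cells received 200 nM 5-azacytidine (Aza), which is built into nucleic acids in place of cytidine and traps DNA methyltransferases, on 3 days in a row, or its solvent DMSO. RNA was taken ahead of the first dose, 72 h after it and 264 h after it. KO groups held 2 Aza libraries at 72 h, 2 Aza libraries at 264 h, 3 DMSO libraries at 72 h, 4 DMSO libraries at 264 h and 2 libraries before treatment, and each of the 5 WT groups held 2. A further 2 KO libraries from batch 2 are marked as pre-treatment and as DMSO at once and were kept apart. Each genotype is represented by 2 clones of 1 leukemic line, and no mast cells or basophils were isolated. The p-values of KO against WT therefore rest on how far clones of a genotype differ, and those of Aza against DMSO measure the spread left after the level of each clone is fitted.

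In mast cells and basophils the IgE receptor is a complex in which FCER1A binds IgE, MS4A2 amplifies the signal and stabilises the complex at the surface, and FCER1G carries the signal inward. FCER1G also serves other Fc receptors and is found in many myeloid cells. Histamine, tryptase and carboxypeptidase A3 are held in secretory granules, prostaglandin D2 is made on activation, and ST2 lets these cells respond to interleukin-33 without IgE. GATA-family transcription factors, which bind short sequences around the letters GATA, are known regulators of many of these genes and of red cell and platelet precursors.

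Library depth was 24992192 to 40187322 counts over the 25 libraries that passed quality control. A count of 3 corresponded to 0.0747 to 0.12 counts per 1e6 counts (CPM), and the lowest count of any of the 10 genes in any library was 5 (SIGLEC6). The line's own markers were present, with CD34 at 217 to 493 CPM, GATA1 at 75.6 to 134 CPM and CSF2RB at 201.5 to 399.8 CPM. The receptor chains CSF2RA and IL3RA had no count in any of the 25 libraries. Whether these receptor chains were silent or their reads were not counted cannot be told from these counts. TET2 RNA was 24.9 to 46.4 CPM in the 15 KO libraries and 22.5 to 29.96 CPM in the 10 WT libraries, so the RNA level does not separate the genotypes and does not check their labels. The batch 1 library of KO clone F4 in DMSO at 72 h is labelled as failing quality control and was left out, so clone F4 at 72 h is set against DMSO of batch 2. The WT libraries taken before treatment did not resemble the later ones of the same clone label: their deviations from the group mean correlated at -0.523 to -0.478 over 3000 variable genes, against 0.451 to 0.516 among later WT libraries. With 2 clones in a group the deviations mirror each other, so each of these libraries was about as close to later ones of the other clone label. Whether the labels were exchanged was not tested, and they were used as given.

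Promoter sequences are shown for HDC and IL1RL1, whose RNA was higher in Aza, and for the IgE receptor genes FCER1A and MS4A2, whose RNA was lower in Aza in KO cells at 72 h. They are 300-base windows from RefSeq on GRCh38.p14, from 250 bases before to 50 bases after the gene start, written 5′ to 3′ on the strand of the gene. Capitals mark matches to GATA motifs on either strand. The letters searched were AGATAA and the same with a final G, AGATAG, as well as both forms with T in first place, TGATAA and, with a final G, TGATAG. HDC lies on the minus strand at chr15:50265677-50265976, the distal start of IL1RL1 on the plus strand at chr2:102311313-102311612, FCER1A on the plus strand at chr1:159302086-159302385 and MS4A2 on the plus strand at chr11:60088414-60088713.
HDC: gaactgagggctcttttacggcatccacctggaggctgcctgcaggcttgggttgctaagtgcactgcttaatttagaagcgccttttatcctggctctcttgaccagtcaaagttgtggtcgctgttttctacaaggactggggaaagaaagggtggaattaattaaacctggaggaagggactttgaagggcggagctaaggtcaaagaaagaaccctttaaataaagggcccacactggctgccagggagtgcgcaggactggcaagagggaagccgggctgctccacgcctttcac
IL1RL1: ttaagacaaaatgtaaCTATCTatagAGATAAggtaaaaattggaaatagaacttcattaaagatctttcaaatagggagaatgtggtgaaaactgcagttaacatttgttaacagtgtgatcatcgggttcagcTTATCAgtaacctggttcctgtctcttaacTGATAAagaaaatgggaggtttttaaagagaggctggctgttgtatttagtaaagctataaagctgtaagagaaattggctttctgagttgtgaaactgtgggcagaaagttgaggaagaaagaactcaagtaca
FCER1A: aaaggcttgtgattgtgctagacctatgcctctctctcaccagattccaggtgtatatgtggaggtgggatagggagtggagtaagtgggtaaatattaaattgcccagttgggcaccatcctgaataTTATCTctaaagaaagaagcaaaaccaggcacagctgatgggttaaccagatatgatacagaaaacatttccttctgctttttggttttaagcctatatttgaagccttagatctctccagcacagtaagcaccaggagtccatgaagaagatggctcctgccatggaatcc
MS4A2: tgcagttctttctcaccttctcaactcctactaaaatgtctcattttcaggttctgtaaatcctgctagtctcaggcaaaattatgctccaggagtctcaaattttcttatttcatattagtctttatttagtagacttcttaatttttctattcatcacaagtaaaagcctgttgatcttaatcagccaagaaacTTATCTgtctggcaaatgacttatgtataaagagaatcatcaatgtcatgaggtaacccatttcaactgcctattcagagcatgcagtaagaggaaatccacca

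The distal IL1RL1 window held 4 GATA matches, while the HDC window held none. FCER1A and MS4A2 held 1 match each, at bases -122 to -117 and -54 to -49 from the start. The windows of CPA3 and HPGDS held 2 matches each, and those of FCER1G, SIGLEC6 and the proximal IL1RL1 start held none. Over all 35116 RefSeq windows of this length, 25.0% held at least 1 match. CpG dinucleotides, the sites of DNA methylation, numbered 0 in the windows of FCER1A, MS4A2 and CPA3, 1 in each IL1RL1 window, 5 in HPGDS, 7 in HDC, 9 in FCER1G and 13 in SIGLEC6, against a median of 14 over all windows. The E-box letters CACGTG or CATGTG, searched on both strands, occurred in CPA3 alone among these 9 windows and in 17.6% of all windows. A match describes the letters only and says nothing of binding. For TPSAB1 and TPSB2 no window was used.

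The genes differed widely in level. On the scale of transcripts per 1e6 transcripts (TPM), which corrects for exon length, FCER1A was the most abundant, with a median of 301 TPM over 15 KO libraries and 155 TPM over 10 WT libraries. FCER1G followed with medians of 66.9 TPM in KO and 71.3 TPM in WT libraries, HPGDS with 24.8 TPM in KO and 15.1 TPM in WT, and MS4A2 with 7.05 TPM in KO and 7.35 TPM in WT. The beta chain of the IgE receptor was thus far below the alpha and gamma chains in both genotypes. TPSB2, CPA3 and HDC had overlapping ranges between 1.05 and 22.9 TPM over all libraries, and TPSAB1, SIGLEC6 and IL1RL1 had the lowest medians, at 1.57, 0.978 and 0.579 TPM over the 25 libraries. The order of the last 6 is not fixed, since their ranges over libraries overlap. TPSAB1 and TPSB2 may also stand too low in it, since reads that fit both of these near-identical genes may not have been counted. Neighbours above them overlapped too, FCER1A (92.1 to 200.4 TPM) with FCER1G (65.3 to 100.3 TPM) in WT libraries and HPGDS (12.2 to 39.0 TPM) with MS4A2 (3.63 to 19.1 TPM) in KO libraries.

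**Figure D1:**
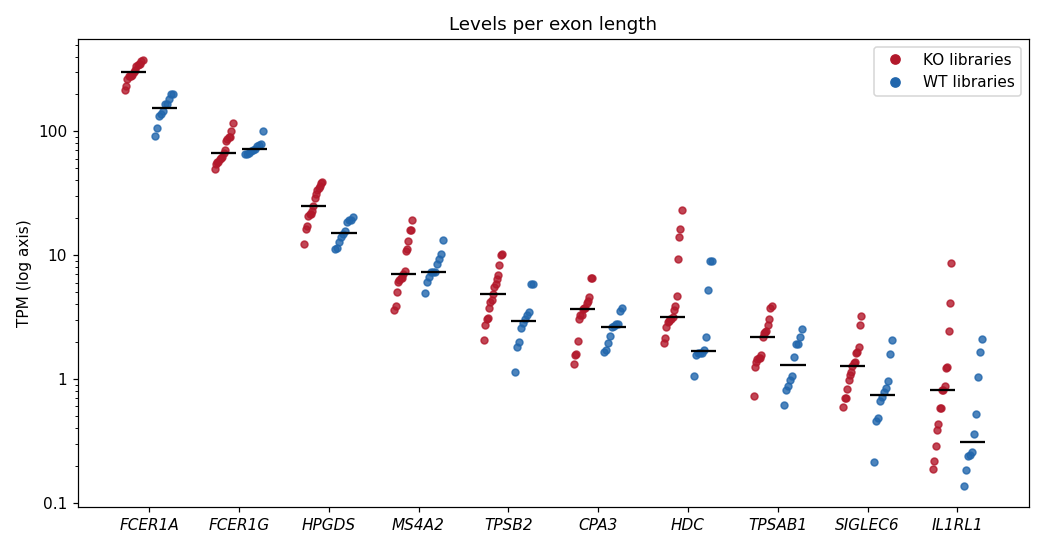
Level of each gene in TPM on a log axis, one point per library (15 KO in red, 10 WT in blue) and black bars for medians. FCER1A is highest, with all KO points above all WT points, and IL1RL1 spreads from 0.137 to 8.62 TPM.

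At 72 h, the histamine enzyme HDC, the interleukin-33 receptor IL1RL1 and the lectin SIGLEC6 rose with Aza in both genotypes, and FCER1A, the IgE-binding chain, fell in both. In KO cells 5 of the 10 genes were higher in Aza and 2 were lower at an adjusted p under 0.05, where 20.1% of the 18391 genes tested were called. In WT cells 4 were higher and 2 were lower, where 18.3% were called. The median log2 difference over the 10 genes was 0.526 in KO cells and 0.261 in WT cells, against 0.01 and 0.002 over all genes tested. With batch 1 alone 4 of the 10 were called in KO cells (HDC, FCER1A, SIGLEC6 and IL1RL1), 4 were called without clone F4, and 0 without clone A12, where F4 is set against 1 DMSO library of batch 2. Because RNA was taken from whole cultures, fewer expressing cells and less RNA per cell cannot be told apart in any of these results.

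HDC (chromosome 15, 50534144 to 50558223, hg19, minus strand) rose in each clone at 72 h. In KO cells at 72 h it stood at 21.3 CPM in clone F4 and 30.1 CPM in clone A12 with Aza, against 3.83 CPM in F4 and 5.05 and 4.70 CPM in A12 with DMSO. WT cells had 12.0 CPM in A7 and 11.5 CPM in C4 with Aza, against 2.10 CPM in each clone with DMSO. Every Aza library was above every DMSO library of its genotype. The log2 difference was 2.68 ± 0.26 (SE) in KO cells, a 6.39-fold rise with an adjusted p of 1.184e-06, and 2.48 ± 0.28 in WT cells, a 5.58-fold rise with an adjusted p of 6.419e-06.

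IL1RL1 (chromosome 2, 102927962 to 102968497, hg19, plus strand) encodes the receptor ST2 and shares 95 of its 5746 exon bases with IL18R1. In KO cells at 72 h it was 7.80 CPM in F4 and 16.4 CPM in A12 with Aza, against 0.824 CPM in F4 and 2.30 and 1.55 CPM in A12 with DMSO. In WT cells it was 3.20 CPM in A7 and 3.93 CPM in C4 with Aza, against 0.977 CPM in A7 and 0.677 CPM in C4 with DMSO. The groups did not overlap in either genotype, and within KO cells clone A12 was above F4 in both treatments. This was a log2 difference of 2.77 ± 0.35 in KO cells (adjusted p 5.023e-06) and 2.13 ± 0.37 in WT cells (adjusted p 0.0002698).

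SIGLEC6 (chromosome 19, 52022779 to 52035110, hg19, minus strand) was a low-count gene throughout, with 5 to 77 counts per library, and rose at 72 h. It was 2.33 CPM in F4 and 2.75 CPM in A12 with Aza in KO cells at 72 h, against 0.602 CPM in F4 and 0.824 and 0.916 CPM in A12 with DMSO. WT cells had 1.38 CPM in A7 and 1.71 CPM in C4 with Aza, against 0.601 CPM in A7 and 0.178 CPM in C4 with DMSO. All Aza libraries were again above all DMSO libraries of their genotype. Aza minus DMSO gave a log2 difference of 1.88 ± 0.36 in KO cells (adjusted p 0.0004478) and 2.03 ± 0.40 in WT cells (adjusted p 0.0007276), and without clone C4 the WT value was 1.19 (adjusted p 0.127). Exons of a gene on the opposite strand overlap 425 of its 2573 exon bases, and that gene had no count in any of the 25 libraries. Counting used no strand option, so this does not show that the opposite gene was silent.

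The chains of the IgE receptor moved in different directions at 72 h. FCER1A (chromosome 1, 159259504 to 159278014, hg19, plus strand) was 90.0 CPM in F4 and 83.3 CPM in A12 with Aza in KO cells, against 109 CPM in F4 and 143 CPM in both A12 libraries with DMSO. In WT cells it was 36.2 CPM in A7 and 40.2 CPM in C4 with Aza, against 76.2 CPM in A7 and 75.9 CPM in C4 with DMSO. The Aza libraries lay below the DMSO libraries without overlap in both genotypes. FCER1A fell by 0.59 ± 0.13 on the log2 scale in KO cells (adjusted p 0.00482) and by 1.00 ± 0.13 in WT cells (adjusted p 5.817e-05). Without clone A12 the KO difference was -0.09 (adjusted p 0.839).

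FCER1G (chromosome 1, 161185024 to 161190489, hg19, plus strand), the shared signalling chain, rose slightly. It was 37.3 CPM in F4 and 20.0 CPM in A12 with Aza in KO cells, against 28.8 CPM in F4 and 18.0 and 21.4 CPM in A12 with DMSO. It was 32.6 CPM in A7 and 24.6 CPM in C4 with Aza in WT cells, against 22.8 CPM in A7 and 22.2 CPM in C4 with DMSO. The KO groups overlapped, with the A12 library in Aza between the A12 libraries in DMSO, and the WT groups did not. The log2 difference was 0.34 ± 0.12 in KO cells (adjusted p 0.04863) and 0.34 ± 0.11 in WT cells (adjusted p 0.04049). With DESeq2 these adjusted p values were 0.0685 in KO cells and 0.0543 in WT cells, so the calls sit at the threshold. Without clone A7 the WT difference was 0.14 (adjusted p 0.669), and the KO call was lost with batch 1 alone (0.28, adjusted p 0.235) and with either KO clone left out.

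MS4A2 (chromosome 11, 59855734 to 59863444, hg19, plus strand), the amplifying beta chain, was 7.25 CPM in F4 and 2.54 CPM in A12 with Aza in KO cells at 72 h, against 7.07 CPM in F4 and 4.19 and 4.26 CPM in A12 with DMSO. It was 3.99 CPM in A7 and 4.64 CPM in C4 with Aza in WT cells, against 5.45 CPM in A7 and 4.67 CPM in C4 with DMSO. In KO cells the 2 clones differed more than the treatments did. With clone and batch fitted, MS4A2 fell by 0.71 ± 0.25 in KO cells, with an adjusted p of 0.04998, and the log2 difference in WT cells was -0.23 ± 0.24 (adjusted p 0.5652). In clone F4 the Aza library was not below its DMSO library. The KO call was lost with batch 1 alone (-0.63, adjusted p 0.201), without the clone block (-0.29, adjusted p 0.856), with the failed library (-0.48, adjusted p 0.247) and with either KO clone left out.

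Among the granule proteases, CPA3 (chromosome 3, 148583043 to 148614983, hg19, plus strand) rose in KO cells at 72 h. It was 2.84 CPM in F4 and 2.25 CPM in A12 with Aza in KO cells, against 2.03 CPM in F4 and 0.961 and 0.956 CPM in A12 with DMSO. WT cells had 1.71 CPM in A7 and 0.991 CPM in C4 with Aza, against 1.35 CPM in A7 and 1.03 CPM in C4 with DMSO. The KO groups did not overlap and the WT groups did. This was a log2 difference of 1.23 ± 0.37 in KO cells (adjusted p 0.01951) and 0.18 ± 0.38 in WT cells (adjusted p 0.8077). The KO call was lost with batch 1 alone (log2 difference 1.05), without the clone block (1.41, adjusted p 0.12) and with the failed library (0.95, adjusted p 0.0835). It was also lost with either KO clone left out, at 1.34 without A12 and 1.31 without F4.

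The tryptase genes TPSAB1 (chromosome 16, 1290697 to 1292555, hg19, plus strand) and TPSB2 (chromosome 16, 1277272 to 1280214, hg19, minus strand) are near-identical: their longest GENCODE 29 transcripts matched at 98.8% of 1352 aligned bases, with an identical run of 682 bases. The command in the header of the count table did not ask for reads that map to several places. Reads that fit both copies may therefore be uncounted and both levels too low. The share lost for each gene is not known. TPSAB1 was 0.788 CPM in F4 and 1.54 CPM in A12 with Aza in KO cells at 72 h, against 0.634 CPM in F4 and 1.17 and 1.23 CPM in A12 with DMSO. TPSB2 was 1.42 CPM in F4 and 2.25 CPM in A12 with Aza in KO cells, against 1.58 CPM in F4 and 2.82 and 3.03 CPM in A12 with DMSO. The groups overlapped for both genes, with A12 above F4. In WT cells at 72 h TPSAB1 was 1.12 CPM in A7 and 0.515 CPM in C4 with Aza, against 0.751 CPM in A7 and 0.427 CPM in C4 with DMSO. TPSB2 was 1.71 CPM in A7 and 0.912 CPM in C4 with Aza in WT cells, against 1.77 CPM in A7 and 1.43 CPM in C4 with DMSO. Neither tryptase was called at 72 h, with log2 differences of 0.71 ± 0.37 for TPSAB1 and 0.06 ± 0.44 for TPSB2 in KO cells and 0.45 ± 0.40 and -0.29 ± 0.46 in WT cells.

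HPGDS (chromosome 4, 95219686 to 95264027, hg19, minus strand), the prostaglandin D2 synthase, fell in WT cells at 72 h. It was 8.55 CPM in F4 and 17.3 CPM in A12 with Aza in KO cells, against 15.1 CPM in F4 and 21.4 and 26.5 CPM in A12 with DMSO. In WT cells it was 8.12 CPM in A7 and 7.61 CPM in C4 with Aza, against 14.0 CPM in A7 and 10.7 CPM in C4 with DMSO. Each clone was lower in Aza than in its own DMSO libraries, and the KO groups overlapped because A12 was above F4. HPGDS fell by 0.64 ± 0.17 in WT cells (adjusted p 0.009461), and the log2 difference in KO cells was -0.41 ± 0.17 (adjusted p 0.08919). Without clone A7 the WT difference was -0.49 (adjusted p 0.0734). In KO cells the call was gained when the libraries taken before treatment were left out (log2 difference -0.42, adjusted p 0.00477).

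**Figure D2:**
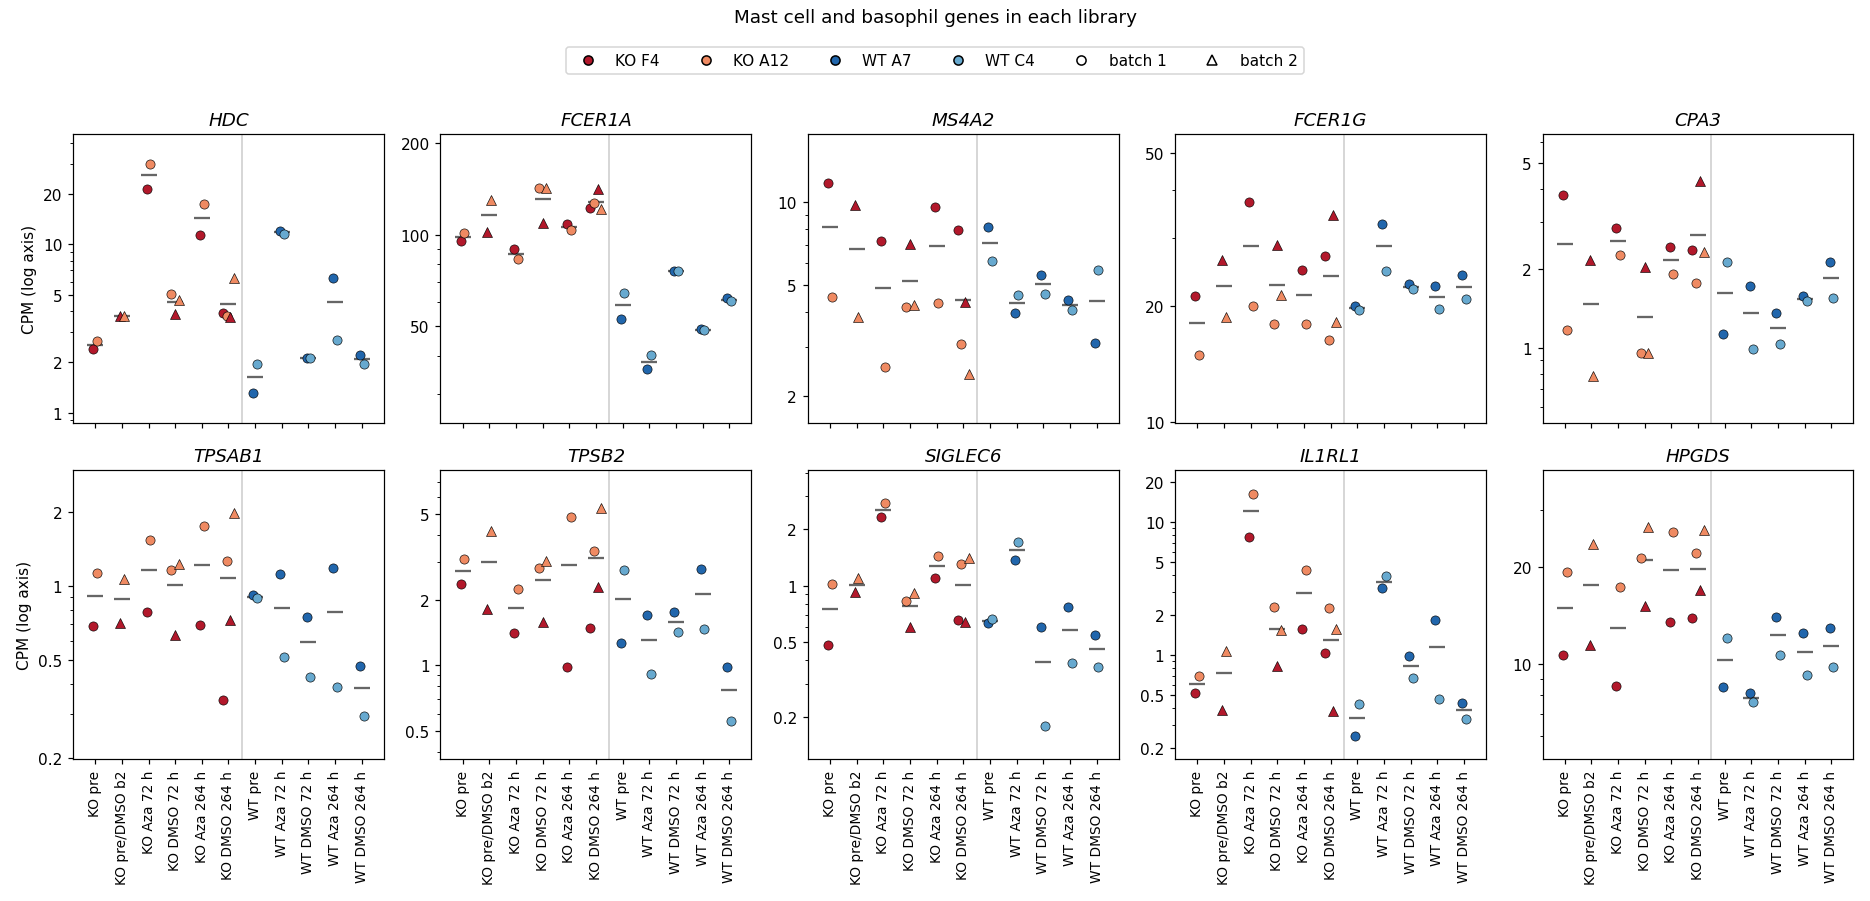
CPM of each gene on a log axis in every passing library, grouped by genotype, treatment and time, with colours for clones, circles for batch 1, triangles for batch 2 and grey bars for group means. HDC and IL1RL1 are highest in Aza at 72 h in both genotypes, and FCER1A is higher in each KO library than in each WT library.

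At 264 h, 1 of the 10 genes was called in KO cells, HDC, where 0.0979% of the 18391 genes tested were called. It was 11.3 CPM in F4 and 17.3 CPM in A12 with Aza, against 3.89 and 3.72 CPM in F4 and 3.74 and 6.28 CPM in A12 with DMSO. Both Aza libraries were above all 4 DMSO libraries. Aza minus DMSO gave a log2 difference of 1.78 ± 0.24, a 3.43-fold rise with an adjusted p of 0.002968. With batch 1 alone it was 1.87 (adjusted p 0.0849), and the call was lost when either clone was left out.

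In WT cells at 264 h none of the 10 genes was called by edgeR, where 0.5% of all genes were called. At an unadjusted p under 0.05 there were 5, namely HDC, FCER1A, TPSAB1, TPSB2 and IL1RL1, against 1467 of all 18391 genes tested. DESeq2 called 1, HDC, against 149 of all genes. Without the libraries taken before treatment edgeR called 2, HDC (1.12, adjusted p 0.0296) and TPSB2 (1.46, adjusted p 0.00784). HDC was 6.35 CPM in A7 and 2.71 CPM in C4 with Aza, against 2.19 CPM in A7 and 1.96 CPM in C4 with DMSO. The groups did not overlap, but A7 was far above C4 with Aza. The log2 difference was 1.11 ± 0.30 (adjusted p 0.1527), and without clone C4 it was 1.52 (adjusted p 0.00406).

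IL1RL1 was not called at 264 h in either genotype. It was 1.57 CPM in F4 and 4.34 CPM in A12 with Aza in KO cells, against 1.03 and 0.380 CPM in F4 and 2.24 and 1.57 CPM in A12 with DMSO, a log2 difference of 0.88 ± 0.33 (adjusted p 0.621). WT cells had 1.85 CPM in A7 and 0.464 CPM in C4 with Aza, against 0.438 CPM in A7 and 0.332 CPM in C4 with DMSO, a log2 difference of 1.56 ± 0.48 (adjusted p 0.211). The KO groups overlapped, and the WT groups did not, by a narrow margin.

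TPSB2 was 0.986 CPM in F4 and 4.84 CPM in A12 with Aza in KO cells at 264 h, against 1.49 and 2.31 CPM in F4 and 3.36 and 5.32 CPM in A12 with DMSO. In WT cells it was 2.79 CPM in A7 and 1.47 CPM in C4 with Aza, against 0.985 CPM in A7 and 0.554 CPM in C4 with DMSO. The KO groups overlapped widely and the WT groups did not. This was a log2 difference of 0.06 ± 0.38 in KO cells (adjusted p 0.9957) and 1.46 ± 0.47 in WT cells (adjusted p 0.2886). Its near-copy TPSAB1 was 0.694 CPM in F4 and 1.75 CPM in A12 with Aza in KO cells, against 0.344 and 0.731 CPM in F4 and 1.27 and 1.98 CPM in A12 with DMSO. In WT cells TPSAB1 was 1.19 CPM in A7 and 0.387 CPM in C4 with Aza, against 0.474 CPM in A7 and 0.295 CPM in C4 with DMSO. TPSAB1 overlapped between treatments in both genotypes, and neither tryptase was called in either. For TPSB2 in WT cells the call was gained without the libraries taken before treatment, as given above, and without a filter on low counts (1.45, adjusted p 0.000328).

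For the IgE receptor at 264 h, FCER1A was 109 CPM in F4 and 104 CPM in A12 with Aza in KO cells, against 122 and 141 CPM in F4 and 127 and 122 CPM in A12 with DMSO. WT cells had 48.9 CPM in A7 and 48.6 CPM in C4 with Aza, against 61.9 CPM in A7 and 60.4 CPM in C4 with DMSO. The Aza libraries were below the DMSO libraries in both genotypes, with log2 differences of -0.28 ± 0.12 in KO cells (adjusted p 0.7252) and -0.33 ± 0.13 in WT cells (adjusted p 0.4933). Neither difference was called.

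The other chains of the receptor did not separate by treatment at 264 h. MS4A2 was 9.61 CPM in F4 and 4.31 CPM in A12 with Aza in KO cells, against 7.93 and 4.36 CPM in F4 and 3.07 and 2.40 CPM in A12 with DMSO. In WT cells MS4A2 was 4.43 CPM in A7 and 4.06 CPM in C4 with Aza, against 3.10 CPM in A7 and 5.69 CPM in C4 with DMSO. Its log2 difference was 0.44 ± 0.21 in KO cells and -0.04 ± 0.24 in WT cells, and it was not called in either. FCER1G was 24.8 CPM in F4 and 17.9 CPM in A12 with Aza in KO cells, against 26.9 and 34.4 CPM in F4 and 16.4 and 18.2 CPM in A12 with DMSO. In WT cells FCER1G was 22.6 CPM in A7 and 19.6 CPM in C4 with Aza, against 24.0 CPM in A7 and 20.8 CPM in C4 with DMSO. Its groups overlapped in both genotypes.

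SIGLEC6 was 1.10 CPM in F4 and 1.45 CPM in A12 with Aza in KO cells at 264 h, against 0.659 and 0.644 CPM in F4 and 1.31 and 1.40 CPM in A12 with DMSO. In WT cells it was 0.768 CPM in A7 and 0.387 CPM in C4 with Aza, against 0.547 CPM in A7 and 0.369 CPM in C4 with DMSO. Treatments overlapped in both genotypes.

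The protease CPA3 and the synthase HPGDS also overlapped between treatments in both genotypes. CPA3 was 2.41 CPM in F4 and 1.91 CPM in A12 with Aza in KO cells, against 2.35 and 4.30 CPM in F4 and 1.76 and 2.31 CPM in A12 with DMSO. In WT cells CPA3 was 1.57 CPM in A7 and 1.51 CPM in C4 with Aza, against 2.12 CPM in A7 and 1.55 CPM in C4 with DMSO. HPGDS was 13.5 CPM in F4 and 25.7 CPM in A12 with Aza in KO cells, against 13.9 and 17.0 CPM in F4 and 22.1 and 25.9 CPM in A12 with DMSO. In WT cells HPGDS was 12.5 CPM in A7 and 9.25 CPM in C4 with Aza, against 12.9 CPM in A7 and 9.79 CPM in C4 with DMSO. Neither of them, nor SIGLEC6, was called at 264 h.

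**Figure D3:**
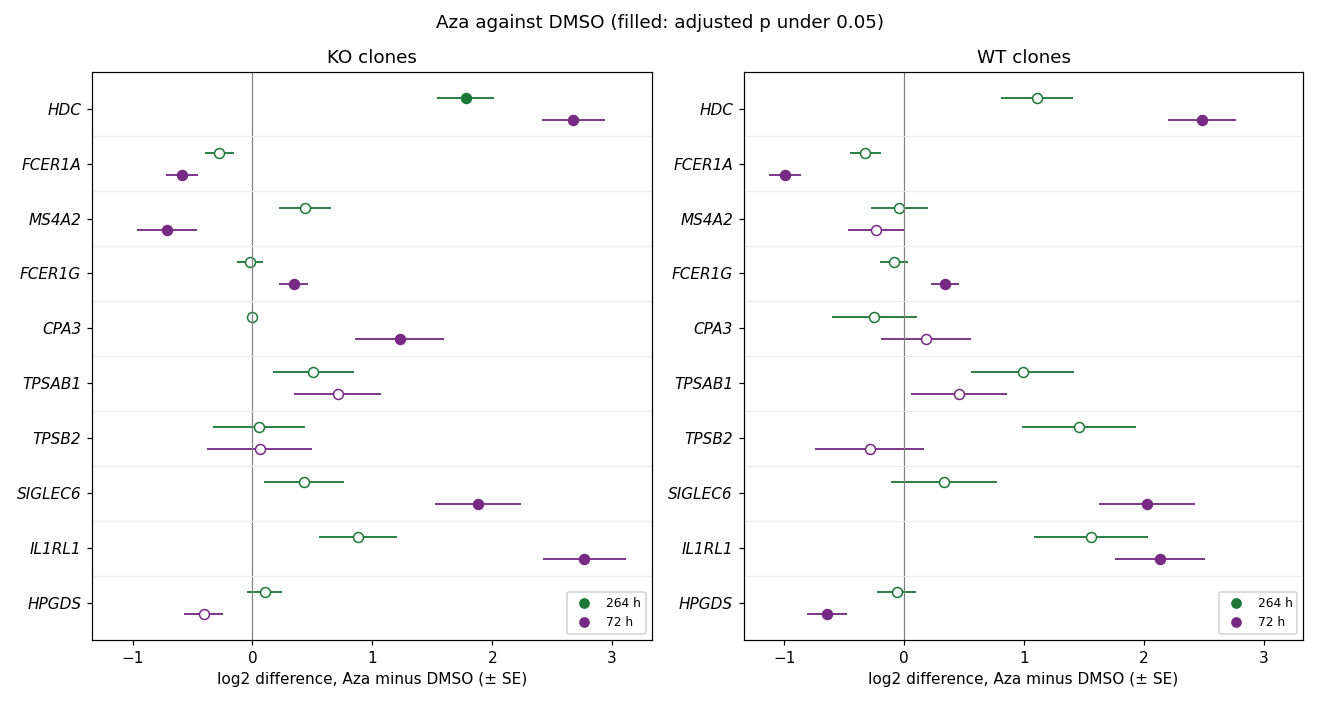
Log2 difference of Aza minus DMSO for each gene in KO cells (left) and WT cells (right) at 264 h (green) and 72 h (purple), with SE bars and filled points for an adjusted p under 0.05. A point whose difference is near 0 has no bar, since no SE could be derived. HDC is the only filled point at 264 h, at 1.78 in KO cells.

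No gene of the 10, and 0% of the 18391 genes tested, differed between KO and WT in its response to Aza at 72 h or at 264 h. At an unadjusted p under 0.05 there was 1 of the 10 at each time. Over all 18391 genes there were 631 at 72 h and 571 at 264 h. At 72 h the gene of the 10 was FCER1A, with a difference of 0.41 (95% interval 0.01 to 0.80). At 264 h it was TPSB2, with a difference of -1.40 (95% interval -2.69 to -0.12). DESeq2 called 0 of the 10 and 0 of all genes at each time. For HDC the interval of the difference was -0.63 to 1.02 at 72 h and -0.15 to 1.49 at 264 h, so these data do not show that its response was the same in both genotypes. For CPA3 at 72 h, called in KO cells alone, the difference was 1.04 with an interval of -0.05 to 2.14.

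The response at 264 h differed from that at 72 h for 3 of the 10 genes in KO cells, where 13.1% of all genes were called. IL1RL1 changed by -1.89 ± 0.43 (adjusted p 0.004391) and SIGLEC6 by -1.45 ± 0.43 (adjusted p 0.02621), so both responses shrank. MS4A2 changed by 1.15 ± 0.30 (adjusted p 0.01138), its difference being negative at 72 h. With batch 1 alone none of these 3 was called, FCER1A was called in their place at 0.49 (adjusted p 0.021), and none of the 10 was called when either KO clone was left out. In WT cells 1 of the 10 was called, where 6.83% of all genes were called: the fall of FCER1A shrank by 0.67 ± 0.18 on the log2 scale (adjusted p 0.03927), and that call was lost without A7 (0.60, adjusted p 0.42) or without C4 (0.73, adjusted p 0.285). HDC missed the threshold in both genotypes, at -0.90 ± 0.31 in KO cells (adjusted p 0.06909) and -1.37 ± 0.42 in WT cells (adjusted p 0.05882), and DESeq2 called it in both.

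In DMSO alone, 264 h against 72 h, CPA3 was the single call among the 10 genes in KO cells, where 4.68% of all genes were called. It rose by 0.98 ± 0.27 (adjusted p 0.03911), with 1.76 to 4.30 CPM over 4 libraries at 264 h and 0.956 to 2.03 CPM over 3 libraries at 72 h. The call was lost with batch 1 alone (log2 difference 0.73), without the clone block (1.12, adjusted p 0.227) and with the failed library (0.81, adjusted p 0.16). It was also lost with either KO clone left out, at 1.07 without A12 and 1.06 without F4. In WT cells 0 of the 10 were called by edgeR and 0 by DESeq2. Of all 18391 genes, edgeR called 0.00544% and DESeq2 called 22. An unadjusted p under 0.05 was found for 3 of the 10 and for 1511 of all genes.

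FCER1A separated the genotypes. All 15 KO libraries, at 83.3 to 143 CPM, were above all 10 WT libraries, at 36.2 to 76.2 CPM, in every treatment and time. It was the only gene of the 10 without overlap between genotypes over all libraries, and the only one edgeR called in any KO against WT comparison. The share of all genes without such overlap was not computed. The libraries of a genotype are repeats of 2 clones, so a steady difference between clones is enough for this separation. In DMSO at 264 h it was 122 CPM in KO clone F4 and 127 CPM in A12 in batch 1, against 61.9 CPM in WT clone A7 and 60.4 CPM in C4, a 2.05-fold difference (log2 1.04 ± 0.07, adjusted p 0.02863). With Aza at 72 h, in the libraries given above, the difference was 2.26-fold (log2 1.18 ± 0.10, adjusted p 0.0203). With Aza at 264 h it was 2.19-fold (log2 1.13 ± 0.08, adjusted p 0.02745). The calls were lost when either WT clone was left out, which leaves 1 WT library, while the log2 differences stayed between 1.02 and 1.26.

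Few genes were called between genotypes at all: 0.208% of 16333 with DMSO at 264 h, 0.19% of 16322 with Aza at 72 h and 0.0488% of 16380 with Aza at the later time. Before treatment 0.0543% of 16560 were called. FCER1A was then 95.6 CPM in F4 and 102 CPM in A12, against 53.1 CPM in A7 and 64.6 CPM in C4, a log2 difference of 0.76 ± 0.12 that missed the threshold (adjusted p 0.06936). Of the 10 genes edgeR called 0 before treatment, 1 had an unadjusted p under 0.05 and DESeq2 called 1, FCER1A in each case. Of all 16560 genes tested then, 1322 had an unadjusted p under 0.05 and DESeq2 called 275. In DMSO at 72 h a single KO library of batch 1 remained, so no test was made there.

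None of the other 9 genes passed the test. The fitted difference of KO minus WT was positive for 9 of the 10 genes before treatment, 9 with DMSO at 264 h, 9 with Aza at 72 h and 10 with Aza at 264 h, with medians of 0.498, 0.959, 0.717 and 0.785 against -0.001 to -0.002 over all genes tested. These comparisons use the same clones, so they are not independent, and the signs depend on the clones. With a clone left out, the difference before treatment reached -0.46 for CPA3, -0.63 for MS4A2, -0.42 for SIGLEC6 and -0.39 for TPSAB1, and that of TPSB2 with Aza at 264 h reached -1.10. IL1RL1 had a log2 difference of 2.07 ± 0.51 with DMSO at 264 h (adjusted p 0.2081) and of 1.77 ± 0.39 with Aza at 72 h (adjusted p 0.206). That of HDC was 1.12 ± 0.18 with Aza at 72 h (adjusted p 0.08362) and 1.66 ± 0.44 with Aza at 264 h (adjusted p 0.2463). DESeq2 called HDC in both of these conditions and IL1RL1 with Aza at 72 h. Of all genes tested, DESeq2 called 351 with Aza at 72 h and 459 with Aza at 264 h. FCER1G was level between genotypes, between -0.12 and 0.02 in the 4 conditions.

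Before treatment the genotypes did not overlap for HDC or IL1RL1, but did for HPGDS. EdgeR called neither HDC (adjusted p 0.7044) nor IL1RL1 (adjusted p 0.7926). IL1RL1 rested on 15 to 19 counts in KO libraries and 7 to 13 in WT libraries. The share of all genes without overlap between 2 libraries and 2 others was not computed. HDC was then 2.40 CPM in F4 and 2.68 CPM in A12, against 1.31 CPM in A7 and 1.95 CPM in C4. IL1RL1 was 0.515 CPM in F4 and 0.697 CPM in A12, against 0.247 CPM in A7 and 0.429 CPM in C4. HPGDS was 10.7 CPM in F4 and 19.2 CPM in A12, against 8.50 CPM in A7 and 12.0 CPM in C4. The WT library labelled C4 was above that labelled A7 for these genes before treatment, while A7 was above C4 for HPGDS in every later condition.

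MS4A2, FCER1G, CPA3 and SIGLEC6 overlapped between genotypes before treatment. MS4A2 was 11.7 CPM in F4 and 4.55 CPM in A12, against 8.11 CPM in A7 and 6.11 CPM in C4, and FCER1G was 21.3 CPM in F4 and 14.9 CPM in A12, against 20.0 CPM in A7 and 19.5 CPM in C4. CPA3 was 3.78 CPM in F4 and 1.17 CPM in A12, against 1.13 CPM in A7 and 2.11 CPM in C4, and SIGLEC6 was 0.481 CPM in F4 and 1.03 CPM in A12, against 0.635 CPM in A7 and 0.660 CPM in C4. For MS4A2, FCER1G, CPA3 and SIGLEC6 the distance between the KO clones exceeded that between the genotype means. The tryptases overlapped between genotypes as well. TPSAB1 was 0.687 CPM in F4 and 1.14 CPM in A12, against 0.917 CPM in A7 and 0.891 CPM in C4, and TPSB2 was 2.37 CPM in F4 and 3.12 CPM in A12, against 1.27 CPM in A7 and 2.77 CPM in C4.

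**Figure D4:**
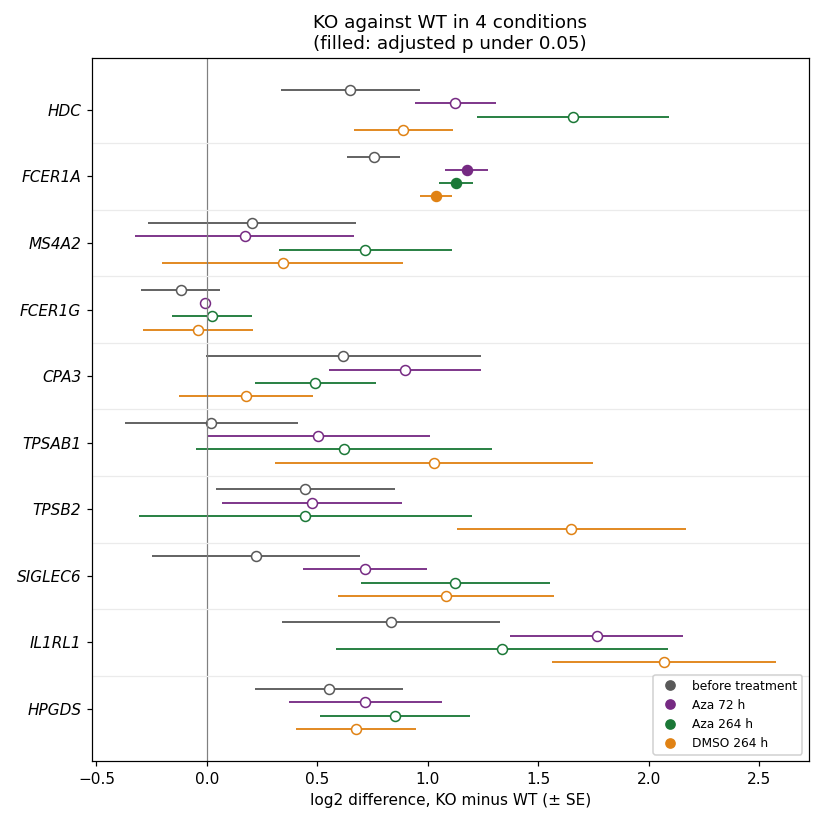
Log2 difference of KO minus WT for each gene before treatment (grey), with Aza at 72 h (purple), with Aza at 264 h (green) and with DMSO at 264 h (orange), with SE bars and filled points for an adjusted p under 0.05. A point near 0 without a bar had no usable SE. FCER1A has the only filled points, between 1.04 and 1.18.

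The 2 KO clones differed from each other in several of these genes across all conditions, which is given as a description without a test. TPSAB1 was 1.07 to 1.98 CPM in the 8 libraries of A12 and 0.344 to 0.788 CPM in the 7 libraries of F4, and HPGDS was 17.3 to 26.5 CPM in A12 and 8.55 to 17.0 CPM in F4. Neither gene overlapped between the clones, and the share of all genes without such overlap was not computed. MS4A2 ran the other way, at 2.40 to 4.55 CPM in A12 and 4.36 to 11.7 CPM in F4, as did FCER1G at 14.9 to 21.4 CPM in A12 and 21.3 to 37.3 CPM in F4, each with a narrow overlap. Clone A12 was thus the higher one for a tryptase and the prostaglandin D2 synthase, and F4 for the beta and gamma chains of the IgE receptor. FCER1A, at 83.3 to 143 CPM in A12 and 90.0 to 141 CPM in F4, was alike in both.

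**Figure D5:**
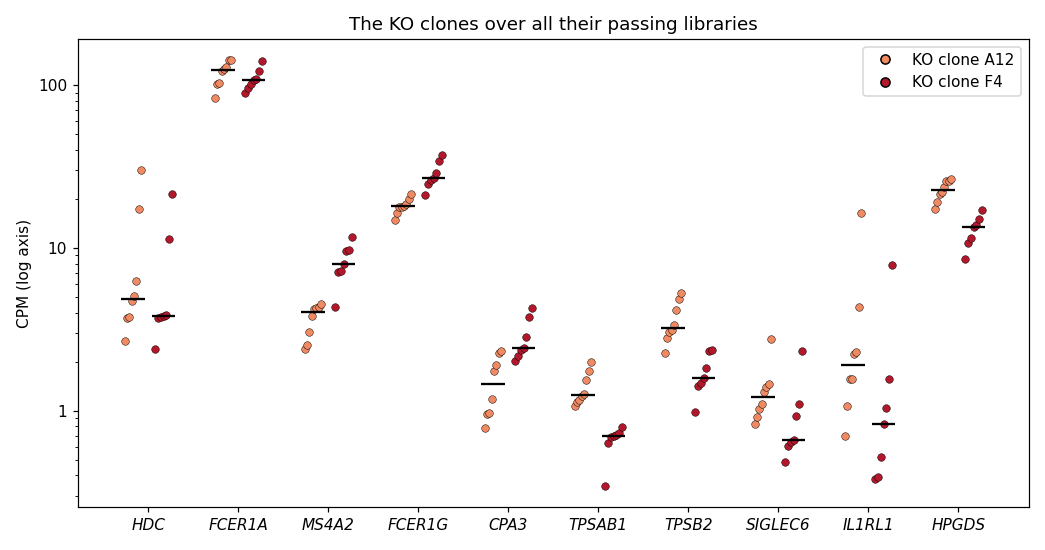
CPM on a log axis in the 8 libraries of KO clone A12 and the 7 of KO clone F4, with black bars for medians. TPSAB1 and HPGDS are higher in A12 without overlap, MS4A2 and FCER1G are higher in F4, and FCER1A is alike.

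Batch 2 repeated the DMSO arm of the KO clones. Its libraries with the mixed pre-treatment and DMSO label had FCER1A at 102 CPM in F4 and 130.0 CPM in A12, HDC at 3.77 CPM in F4 and 3.73 CPM in A12, IL1RL1 at 0.389 CPM in F4 and 1.07 CPM in A12, and HPGDS at 11.5 CPM in F4 and 23.6 CPM in A12. HDC was nearly equal in the clones and the other 3 genes were higher in A12. MS4A2 was 9.72 CPM in F4 and 3.84 CPM in A12, FCER1G was 26.3 CPM in F4 and 18.7 CPM in A12, and CPA3 was 2.16 CPM in F4 and 0.782 CPM in A12. These were higher in F4. TPSAB1 was 0.705 CPM in F4 and 1.07 CPM in A12, TPSB2 was 1.82 CPM in F4 and 4.16 CPM in A12, and SIGLEC6 was 0.923 CPM in F4 and 1.10 CPM in A12. The order of the clones matched that of batch 1 before treatment for every gene but HDC.

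Other genes of these cells were read from lists. Of 25 other mast cell and basophil genes, 18 were tested, and in KO cells at 72 h 7 rose in Aza and 0 fell, where 20.1% of all genes tested were called, with a median of 0.41. Among them were the granule protease CTSG (log2 difference 1.95), the basophil surface enzyme ENPP3 (1.55) and the stem cell factor receptor KIT (1.53). KIT averaged 40.7 ± 7.04 CPM (SD, n = 2) with Aza and 13.1 ± 4.41 CPM (SD, n = 3) with DMSO. In WT cells 5 rose and 2 fell, where 18.3% of all genes were called, among them CD200R1 (-0.93), KIT (0.91) and the transcription factor MITF (0.73). CTSG was low, at 1.15 ± 0.715 CPM (SD, n = 2) with Aza and 0.24 ± 0.259 CPM (SD, n = 3) with DMSO in KO cells. At 264 h edgeR and DESeq2 each called 0 of the 18 in either genotype, and 4 had an unadjusted p under 0.05 in each. Of all 18391 genes, 1188 in KO cells and 1467 in WT cells had such a p. Levels within this list differed widely. The chymase CMA1 had no count in 16 of 25 libraries and the cytokine IL4 in 22, while GATA2 was 407 to 1081 CPM and SLC18A2 182 to 321 CPM.

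Downstream of the IgE receptor, 14 signalling genes were tested, and the shares of all genes called at 72 h, 20.1% in KO cells and 18.3% in WT cells, stand beside each count here. In KO cells at 72 h 2 rose and 5 fell: the kinases FYN (0.77) and BTK (0.75) rose, and the phosphatase INPP5D (-0.55) and the phospholipase PLCG2 (-0.41) were the largest falls. In WT cells 3 rose and 7 fell, with FYN at 1.16, BTK at 0.63, INPP5D at -0.51 and PLCG2 at -0.48. Of 8 tested genes of the interleukin-33 pathway other than the receptor, 1 was called in each genotype, no more than the share of all genes: SIGIRR rose in KO cells (0.28) and the co-receptor IL1RAP fell in WT cells (-0.53), and IL33 itself had no count in any library. Of 5 tested genes that handle histamine and prostaglandin D2, the phospholipase PLA2G4A, which frees arachidonic acid, fell in both genotypes (-1.02 in KO cells, -0.96 in WT cells). At 264 h edgeR and DESeq2 each called 0 genes of these 3 lists in either genotype. An unadjusted p under 0.05 was found for 1 gene in KO cells and 3 genes in WT cells. Over all 18391 genes it was found for 1188 in KO cells and 1467 in WT cells.

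Markers of other blood cells also moved with Aza. Of all genes tested, 11.6% rose in KO cells and 9.26% in WT cells at 72 h, and 0.0816% rose in KO cells and 0.364% in WT cells at 264 h. The summed level of 13 erythroid genes at 72 h was 487 to 504 CPM with Aza against 172 to 399 CPM with DMSO in KO cells, and 7 of 13 rose. In WT cells it was 758.5 to 1006 CPM with Aza against 448 to 789.9 CPM with DMSO, and 4 of 13 rose. At 264 h 2 of 13 rose in KO cells, at sums of 468 to 547 CPM with Aza against 175 to 349 CPM with DMSO, and 4 of 13 rose in WT cells, at 1349 to 1687 CPM with Aza against 542 to 715 CPM with DMSO. The erythroid sums were thus higher with Aza at both times, with an overlap in WT cells at 72 h. The summed level of 9 eosinophil genes at 72 h was 9.38 to 14.4 CPM with Aza against 5.10 to 6.11 CPM with DMSO in KO cells, where 4 of 7 tested rose, and 5.99 to 10.4 CPM with Aza against 4.31 to 4.58 CPM with DMSO in WT cells, where 1 rose. At 264 h it was 20.8 to 73.6 CPM with Aza against 4.93 to 7.19 CPM with DMSO in KO cells and 14.7 to 65.9 CPM with Aza against 3.81 to 4.09 CPM with DMSO in WT cells. At 264 h CLC, EPX and PRG3 rose in both genotypes, while HDC alone of the 10 genes was called, in KO cells. Of 7 tested megakaryocyte genes 3 rose in KO cells and 6 in WT cells at 72 h, with sums over 9 genes of 723 to 768 CPM with Aza against 597.5 to 732 CPM with DMSO in KO cells and 660.0 to 728.5 CPM with Aza against 539.9 to 562 CPM with DMSO in WT cells. Of 4 tested neutrophil and monocyte genes 1 rose in each genotype at 72 h, CSF1R. RNASE2 had no count in 11 libraries, and the neutrophil genes ELANE and S100A8 had none in 19 and 20. The part of these cell types in the results for the 10 genes was not tested.

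Across the 25 libraries, log2 CPM of HDC and IL1RL1 moved together (Pearson r 0.915), and SIGLEC6 followed both (0.82 with HDC, 0.805 with IL1RL1), while FCER1A was closest to HPGDS (0.78). The genes outside the 10 most like HDC were PPP1R15A (r 0.882), CERS2 (0.879) and H2BC12 (0.878). Those most like FCER1A were CDH7 (0.931), AFP (0.928) and SMYD3 (0.919), and those most like IL1RL1 were LINC01215 (0.929), PLEK (0.913) and TMEM154 (0.897). These values describe 25 libraries that share clones, treatments and times, and the libraries are not independent.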

How the data were processed

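RNA of the TF-1 clones was sequenced by a stranded mRNA kit, per the labels' protocols, and the authors deposited raw counts per gene. Per the file headers, featureCounts 1.6.2 counted read pairs over exons of GENCODE release 19 with no strand option, on hg19 (GRCh37). The submitters' processing notes also name STAR 2.6.1d, cutadapt, FastQC and DESeq2. Reads of overlapping or antisense genes can therefore not be told apart. Symbols came from a table of gene names for 51996 identifiers and from GENCODE 29 for 342.

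From the counts, CPM with TMM library sizes and TPM from the deposited exon lengths were computed. Genes were filtered with filterByExpr and tested with the quasi-likelihood test of edgeR 4.0.16 (R 4.3.3), with Benjamini-Hochberg adjustment over all genes tested and a threshold of 0.05, checked on simulated counts. Aza and time comparisons came from 1 model of the 25 libraries, whose terms are clone, batch and each condition within a genotype, and KO against WT from batch 1 libraries in each condition. Clone is the replicate block: same-clone libraries correlated at 0.55 to 0.611 in KO cells and at 0.451 to 0.516 among later WT libraries. WT libraries from before treatment correlated at -0.523 to -0.478 with later ones of the same clone label, and were fitted with the same block. Alternatives were DESeq2 1.42.0, RLE factors, no filter, no block, batch 1 alone, the failed library included, no libraries from before treatment, and leaving out each clone. In all, 14 comparisons were made. The 10 genes and the other lists were chosen with earlier results of these data known. Named from the other lists are up to 4 called genes with the largest change (1 such gene is not reported here), and for 3 genes the 3 most alike by Pearson r of log2 CPM (prior count 2). Total counts were 24992192 to 40187322, and floors of 3 counts cover counting error only. Labels do not say that libraries came from separate cultures, so p-values measure the spread between these libraries, which may be technical.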

Additional observations from a re-analysis of the deposited data

Results flagged for a closer look

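HDC was 6.28 CPM in the batch 2 library of KO clone A12 in DMSO at 264 h, far from the other 3 libraries of that group (3.72 to 3.89 CPM). Chance flags about 1 in 20 such groups, and 10 were examined.

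The response to Aza differed between 264 h and 72 h in KO cells for MS4A2 (1.15), SIGLEC6 (-1.45) and IL1RL1 (-1.89), and in WT cells for FCER1A (0.67), each on the log2 scale and by edgeR's test of the difference itself.

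The library of KO clone F4 in DMSO at 72 h that failed quality control had FCER1A at 187 CPM and FCER1G at 39.2 CPM. The highest passing KO libraries without Aza had 143 CPM for FCER1A and 34.4 CPM for FCER1G.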

How the results depend on the processing

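No log2 difference of the 10 genes that was called in the main model changed sign in an alternative, and none called in an alternative had the opposite sign in the main model. The change of the FCER1A response from 72 h to 264 h in KO cells, called with batch 1 alone (0.49) and without a filter (0.32), was -0.07 without clone A12 and not called there. Counts of called genes, with the main value first, moved as follows. They stand without the share of all genes called in each setting, so they are not results about the 10 genes in particular. For KO against WT before treatment, for example, edgeR called 9 of all genes tested and DESeq2 called 275. For Aza against DMSO in KO cells at 72 h the count of 7 became 4 without the replicate block and 4 with batch 1 alone, and 0 to 4 with a clone left out, 0 without A12. In KO cells at 264 h the count of 1 became 2 without a filter, 0 without the block, 0 with batch 1 alone and 0 with either clone left out. In WT cells at 72 h the count of 6 became 3 without the block, and at 264 h the count of 0 became 4 without a filter, 2 without libraries from before treatment, 1 with DESeq2 and 0 to 2 with a clone left out.

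For the response at 264 h against 72 h in KO cells, 3 became 7 without a filter, 0 without the block, 1 with batch 1 alone, 1 with the failed library, 6 without libraries from before treatment and 0 with either clone left out. In WT cells 1 became 3 without a filter, 0 without the block, 0 with the failed library, 4 without libraries from before treatment, 2 with DESeq2 and 0 to 1 with a clone left out. For DMSO at 264 h against 72 h in KO cells, 1 became 2 without a filter, 0 without the block, 0 with batch 1 alone, 0 with the failed library, 2 without libraries from before treatment, 2 with DESeq2 and 0 with either clone left out. For KO against WT before treatment 0 became 1 without a filter, 1 with DESeq2 and 0 to 1 with a clone left out. In DMSO at 264 h 1 became 4 without a filter and 0 to 3 with a clone left out. In Aza at 72 h 1 became 4 without a filter, 3 with DESeq2 and 0 to 4 with a clone left out, and in Aza at 264 h 1 became 4 without a filter, 2 with DESeq2 and 0 to 2 with a clone left out. Other counts stayed within 1.5 times the main one. The cause of these moves was not tested. HDC, IL1RL1 and SIGLEC6 in KO cells at 72 h lost their calls only without A12, which leaves clone F4 with 1 DMSO library of batch 2. No paired fit other than the clone block was made.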
